A study of Bos taurus with 16 samples.

Results

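The comparison described here set the 4 Lidia bulls of the Montealto farm (named M8162, M8165, M8171 and M8174, M before a tag number standing for Montealto) against 8 Wagyu bulls (animals 1, 3, 4, 5, 6, 7, 9 and 12), that is 12 of the 16 animals of the series, chosen by their titles and farm and not by any measured value. Medial prefrontal cortex (PFC) was taken within 1 h of death from non-castrated males, and one RNA-seq library was made from each animal. All were 3 years old except Montealto bull M8174, which was 4 years old. Lidia is a breed selected for agonistic behaviour, and Wagyu is a breed selected for meat quality and easy handling, and the comparison asks which genes differ in the PFC between the animals of this farm and the tamer breed.

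The Montealto bulls were unrelated, came from a single farm, grazed until the last months of life and were then fattened on concentrates. They were provoked to agonistic behaviour before a bullfight and were sampled at the bullring. The Wagyu bulls received a high-concentrate diet from a young age, travelled together to a slaughterhouse and were sampled there. Breed, farm, feed, the events before death and the place of sampling therefore separate the same 4 animals from the same 8, and cannot be told apart in any value below. No animal received an experimental treatment.

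The PFC is the part of the frontal lobe that controls planned and social behaviour and restrains aggressive responses. Its grey matter holds glutamatergic pyramidal neurons, GABAergic interneurons, astrocytes, oligodendrocytes and microglia, and it is covered by meninges and supplied by vessels whose endothelial cells, mural cells and fibroblasts enter a dissected sample. Neuronal activity and stress hormones both act on transcription in these cells, through immediate early genes and through the glucocorticoid receptor. In a bulk sample, fewer cells of a type and less RNA per cell cannot be told apart.

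The abundance of each gene is given as FPKM, fragments per kilobase of transcript relative to all mapped fragments of the animal, summed over the transcripts of the gene and rescaled between the 12 animals by the median of ratios. The deposited coverage corresponds to 20.0 to 34.8 M fragments in the Montealto bulls and 7.67 to 37.0 M in the Wagyu bulls, M after a number standing for 10 to the power 6. Wagyu 5 was the shallowest Wagyu library and Montealto bull M8165, with 20.0 M fragments, the shallowest Montealto library. Mean depth did not differ detectably (29.1 ± 7.12 M, SD, n = 4, against 29.3 ± 9.08 M, SD, n = 8, two-sided exact permutation test, p = 0.881). The rescaling factor was 2.29 for Wagyu 5 and between 0.640 and 1.17 for the other 11 animals.

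Cortical markers were present in every library, as in SLC17A7, the vesicular glutamate transporter of pyramidal neurons, with 93.2 to 135 FPKM in the Montealto bulls and 106 to 175 FPKM in the Wagyu bulls. GFAP, the intermediate filament of astrocytes, reached 192 to 286 FPKM and 88.3 to 319 FPKM, respectively. Only genes that the study itself listed as differing between the breeds could be given a symbol, so many defining markers could not be read by name. That list was drawn up from all 16 animals, these 12 included, and the direction of a named gene is therefore not independent evidence.

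Among the 16474 genes that averaged 0.1 FPKM or more, 51 (0.31%) were called, which required an adjusted p up to 0.05 and a log2 fold change of 0.1 or more in size (limma on log2(FPKM + 0.1), Benjamini-Hochberg adjustment over all tested genes). A total of 38 (0.231%) were higher and 13 (0.0789%) lower in the Montealto bulls. The smallest adjusted p was 0.00805, and the smallest absolute log2 fold change of a called gene was 0.39. Before adjustment, 3045 genes (18.5%) had a p under 0.05, 1625 higher (9.86%) and 1420 lower (8.62%). The 4 Montealto values lay above all 8 Wagyu values in 239 genes (1.45%) and below all of them in 212 (1.29%), and 50 of the 51 called genes were among these. Of the 992 tested genes with a symbol, 31 (3.12%) were called higher and 10 (1.01%) lower, and the groups did not overlap in 102 genes on the higher side (10.3%) and 29 on the lower (2.92%).

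**Figure D1:**
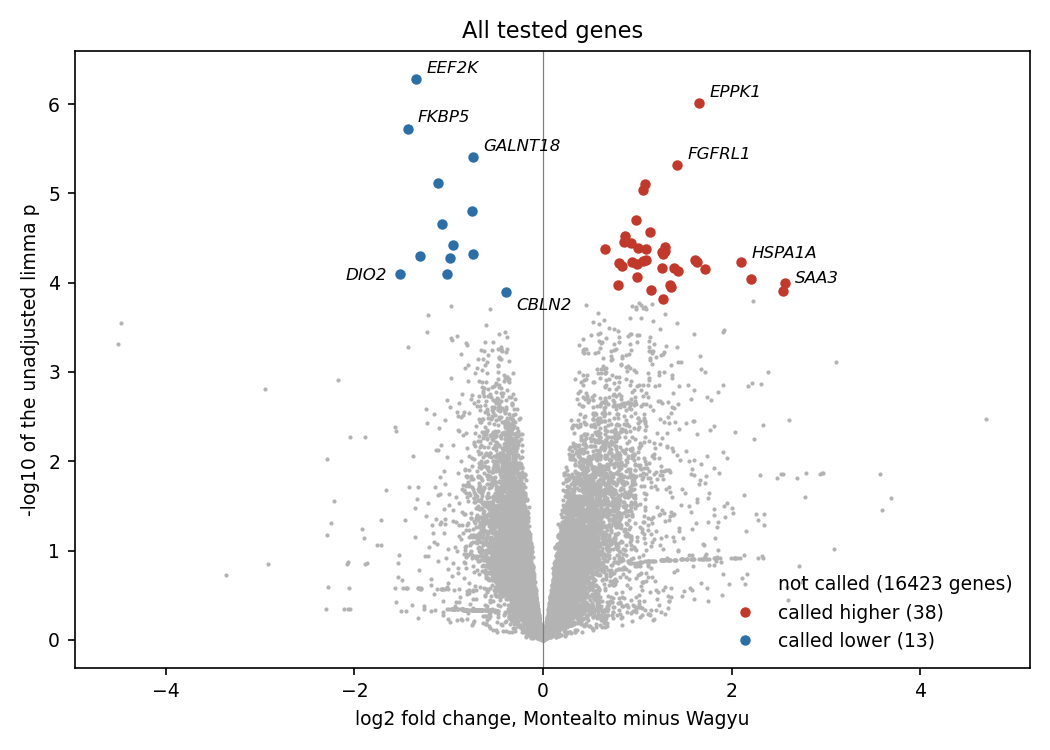
Each point is 1 of the 16474 tested genes, with the log2 fold change (Montealto minus Wagyu) on the x axis and the −log10 of the unadjusted limma p on the y axis. The 38 called higher genes are red, the 13 called lower genes are blue, and EEF2K and EPPK1 stand at the top of the 2 sides.

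The number of called genes depended on the animals used. It was 86 without Wagyu 1, 388 without Wagyu 3, 9 without Wagyu 4, 8 without Wagyu 5, 3 without Wagyu 6, 4 without Wagyu 7, 13 without Wagyu 9 and 4 without Wagyu 12. It was 5 without Montealto bull M8162, 14 without M8165, 2 without M8171 and 50 without M8174, the 4-year-old bull. Leaving out both shallow animals, Wagyu 5 and Montealto M8165, left 2 called genes, both lower in the Montealto bulls, so that EPPK1 was not called. On the FPKM as deposited, with no rescaling between animals, none was called, with 779 genes at an unadjusted p under 0.05. All 51 genes had the same direction and an unadjusted p under 0.05 in each of the 12 fits that left out 1 animal. Each of these fits reuses all but 1 of the animals of the fit that chose the genes, so this is no independent support. EEF2K and EPPK1 were called in all 12 of these fits.

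**Figure D2:**
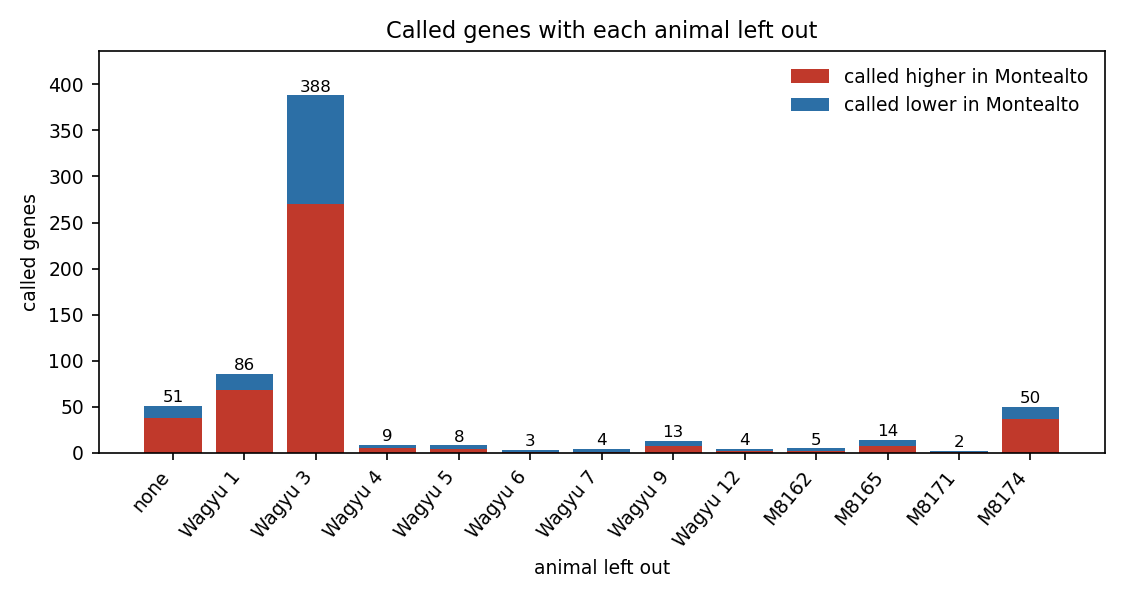
Bars show the number of called genes (y axis) with no animal left out (51) and with each of the 12 animals left out in turn (x axis), divided into genes higher (red) and lower (blue) in the Montealto bulls. The count ran from 2 without Montealto bull M8171 to 388 without Wagyu 3.

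The genes described first were the called genes with a symbol whose groups did not overlap, up to 10 with the largest change in each direction, so that their separation is part of the choice and not a result. The gene with the smallest p was EEF2K (ENSBTAG00000017662, chromosome 25, 19903413 to 19955828, plus strand, ARS-UCD 1.2), the calcium- and calmodulin-dependent kinase that phosphorylates elongation factor 2 and slows peptide elongation. Its level was 4.20 FPKM in bull M8162, 2.67 FPKM in M8165, 3.75 FPKM in M8171 and 3.83 FPKM in M8174, against a lowest value of 6.75, a median of 9.12 and a highest value of 11.2 FPKM in the Wagyu bulls. The groups did not overlap, and bull M8165 was the lowest of all. The log2 fold change was -1.34 ± 0.14 (SE, limma adjusted p = 0.00805), and it lay between -1.42 and -1.2 when any 1 animal was left out.

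EPPK1 (ENSBTAG00000045727, chromosome 14, 940689 to 955681, plus strand), a plakin that binds intermediate filaments, stood on the other side. It measured 1.01, 1.19, 0.919 and 0.930 FPKM in bulls M8162, M8165, M8171 and M8174, against 0.152, 0.270 and 0.386 FPKM as the lowest, median and highest Wagyu values. The 4 bulls were close to each other and all above the highest Wagyu animal. Its log2 fold change was 1.65 ± 0.19 (SE, limma adjusted p = 0.00805), and it became 0.68 with a pseudocount of 1. Beside the fits that left out 1 animal, EPPK1 was called in 7 of 10 other settings. Its adjusted p reached 0.31 over all settings.

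FKBP5 (ENSBTAG00000047502, chromosome 23, 9555619 to 9672159, minus strand) encodes a co-chaperone that lowers the affinity of the glucocorticoid receptor for its ligand and is itself induced by that receptor. It was lower in the Montealto bulls, with 3.94, 3.31, 3.21 and 5.24 FPKM in bulls M8162, M8165, M8171 and M8174 against a lowest value of 7.97, a median of 10.4 and a highest of 14.7 FPKM in the Wagyu bulls. Every Montealto value was under every Wagyu value. Its log2 fold change was -1.44 ± 0.17 (SE, limma adjusted p = 0.0103), and the gene was called in 11 of the 12 fits that left out 1 animal.

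DIO2 (ENSBTAG00000001605, chromosome 10, 91495432 to 91504569, minus strand), the deiodinase that converts thyroxine into the active hormone T3 in the brain, showed the largest decrease among the named called genes. The 4 bulls had 1.61, 0.967, 1.49 and 0.862 FPKM, and the Wagyu values ran from 2.19 over a median of 3.90 to 5.94 FPKM. The groups were separate, with bulls M8165 and M8174 lowest. The log2 fold change was -1.52 ± 0.27 (SE, limma adjusted p = 0.0318), but the call was kept in only 2 of the 12 fits with 1 animal left out, where the adjusted p reached 0.0973.

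Of the other genes with lower levels, GALNT18 (ENSBTAG00000002914, chromosome 15, 41064073 to 41420001), a member of the family that starts mucin-type O-glycosylation, varied little among the bulls. It had 4.23 to 4.79 FPKM in the 4 bulls and 6.34 to 8.94 FPKM in the Wagyu bulls (log2 fold change -0.74 ± 0.10, SE, limma adjusted p = 0.0157), and it was called in 8 of the 12 fits with 1 animal left out. GPX3, a secreted glutathione peroxidase, had 7.43 to 11.0 FPKM against 13.6 to 25.8 FPKM (log2 fold change -1.02 ± 0.18, SE, limma adjusted p = 0.0318). OTOP1, a proton channel, was close to the filter in both groups, with 0.103 to 0.155 FPKM against 0.286 to 0.421 FPKM, so that its log2 fold change of -0.95 became -0.25 with a pseudocount of 1.

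NOL10, a nucleolar protein, measured 2.34 to 2.75 FPKM in the 4 bulls against 3.53 to 4.90 FPKM in the Wagyu bulls (log2 fold change -0.75 ± 0.11, SE, limma adjusted p = 0.0288). CBLN2, a secreted organiser of synapses, showed the smallest change of all called genes. Its levels were 17.8, 20.0, 18.3 and 19.2 FPKM in bulls M8162, M8165, M8171 and M8174 against 22.7, 24.6 and 26.3 FPKM as lowest, median and highest Wagyu value (log2 fold change -0.39 ± 0.07, SE, limma adjusted p = 0.0415). The groups did not overlap, but the call was kept in only 1 of the 12 fits that left out 1 animal, and the log2 fold change was -0.61 on the FPKM as deposited.

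BDNF (ENSBTAG00000008134, chromosome 15, 58385523 to 58422131, minus strand), the neurotrophin whose transcription follows neuronal activity, was the 1 called gene whose groups overlapped, and it is described here for that reason. It measured 1.28, 0.930, 0.985 and 1.71 FPKM in bulls M8162, M8165, M8171 and M8174, and 1.70, 3.23 and 4.03 FPKM as the lowest, median and highest Wagyu value. The overlap came from bull M8174 and from Wagyu 3, the lowest Wagyu animal. This gave a log2 fold change of -1.30 ± 0.22 (SE, limma adjusted p = 0.0296).

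Among the genes with higher levels, SAA3 (ENSBTAG00000049589, chromosome 29, 26414390 to 26418145, minus strand), an acute-phase apolipoprotein, had the largest fold change of the called genes with a symbol and a wide spread. It measured 1.26, 2.28, 0.289 and 0.365 FPKM in bulls M8162, M8165, M8171 and M8174, against a lowest value of 0, a median of 0.0580 and a highest of 0.130 FPKM in the Wagyu bulls. Bulls M8162 and M8165 were well above the other Montealto bulls, and all 4 were above every Wagyu animal. The log2 fold change was 2.56 ± 0.46 (SE, limma adjusted p = 0.0379) with a pseudocount of 0.1, 0.85 with a pseudocount of 1 and 4.22 with 0.01, since the Wagyu values were close to 0. The Wagyu mean of 0.0561 FPKM was under the filter of 0.1 FPKM. SAA3 was therefore tested only through the Montealto values, and its call and separation are not independent of the filter.

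HSPA1A (ENSBTAG00000025441, chromosome 23, 27520317 to 27522790, minus strand), the stress-inducible form of the chaperone HSP70, had the highest level of the named called genes. It reached 87.1, 116, 46.4 and 72.1 FPKM in bulls M8162, M8165, M8171 and M8174, and 7.74, 20.0 and 35.5 FPKM as lowest, median and highest Wagyu value. The lowest bull, M8171, was still above the highest Wagyu animal, Wagyu 4. The log2 fold change was 2.10 ± 0.36 (SE, limma adjusted p = 0.0296), with an adjusted p of up to 0.112 when 1 animal was left out. HSPA1A has near-identical gene copies, among which the authors' fragment assignment could have divided reads.

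TMEM119, a membrane protein used as a marker of microglia, and APOLD1, an early response gene of endothelial cells, also differed. TMEM119 measured 0.812, 0.434, 0.351 and 0.143 FPKM in the 4 bulls against 0.0198 to 0.0867 FPKM in the Wagyu bulls (log2 fold change 1.72 ± 0.30, SE, limma adjusted p = 0.0303), and its log2 fold change became 0.43 with a pseudocount of 1. APOLD1 measured 5.04, 6.53, 6.59 and 4.46 FPKM against a lowest value of 1.16, a median of 1.46 and a highest of 3.83 FPKM (log2 fold change 1.63 ± 0.28, SE, limma adjusted p = 0.0296). Neither gene had overlapping groups. The Wagyu mean of TMEM119 was 0.0478 FPKM, under the filter of 0.1 FPKM. TMEM119 was therefore tested only through the Montealto values, and its call and separation are not independent of the filter.

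The remaining genes of the 10 largest increases among called genes with a symbol were RAB7B, FGFRL1, GAB1, QPRT and CDC42EP4. RAB7B, a small GTPase of endosomal traffic, had 0.436 to 1.02 FPKM in the bulls against 0.104 to 0.345 FPKM (log2 fold change 1.44 ± 0.25, SE, limma adjusted p = 0.0311). QPRT, which turns quinolinate into a precursor of NAD, had 1.01 to 1.88 FPKM against 0.237 to 0.746 FPKM (log2 fold change 1.35 ± 0.24, SE, limma adjusted p = 0.0382). CDC42EP4, an effector of the GTPase CDC42, had 7.24 to 13.1 FPKM against 2.87 to 6.29 FPKM (log2 fold change 1.29 ± 0.21, SE, limma adjusted p = 0.0296). With a pseudocount of 1 the log2 fold change became 0.52 for RAB7B and 0.66 for QPRT.

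**Figure D3:**
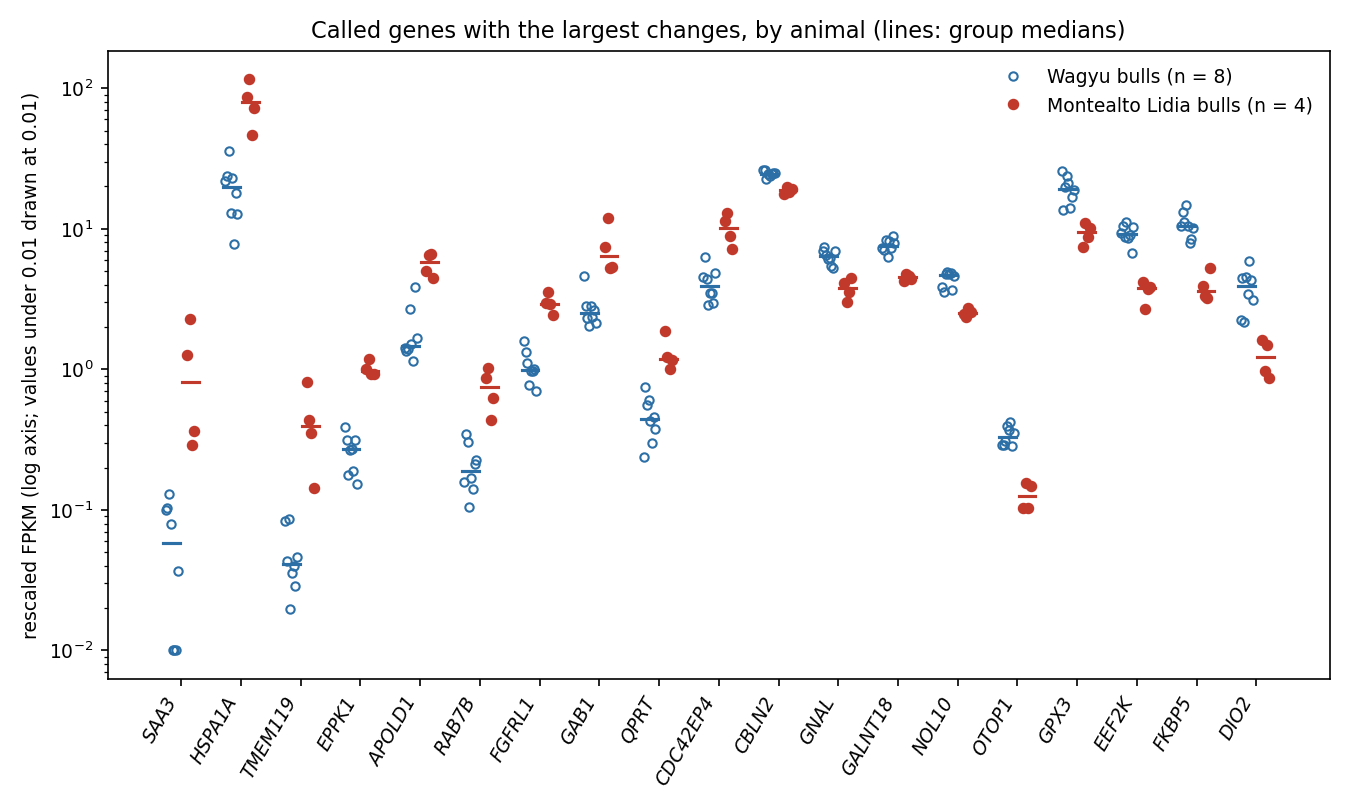
Rescaled FPKM on a log axis (y) for the 19 called genes with a symbol and the largest changes among those without overlap of the groups (x), as 1 open blue circle per Wagyu bull (n = 8) and 1 red circle per Montealto bull (n = 4), with group medians as lines. The genes run from SAA3 (0.289 to 2.28 in the Montealto bulls against 0 to 0.130 FPKM) to DIO2 (0.862 to 1.61 against 2.19 to 5.94 FPKM), and the lack of overlap follows from how they were chosen.

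A further 22 named genes were called outside that set, among them BDNF. Those higher in the Montealto bulls include the progenitor filament NES, the RNA-binding proteins MSI1 and RBM38, the transcription factor RFX2 and NKD1, an inhibitor of WNT signalling. NKD1 measured 0.745 to 1.56 FPKM in the bulls against 0.273 to 0.656 FPKM in the Wagyu bulls (log2 fold change 1.26 ± 0.22, SE, limma adjusted p = 0.0303, and 0.60 with a pseudocount of 1). The cytokine TNFSF13 measured 2.61 to 4.53 FPKM against 1.10 to 2.16 FPKM (log2 fold change 1.10 ± 0.18, SE, limma adjusted p = 0.0296). The bulls were above all Wagyu animals in each of these. Another 10 called genes carried no symbol, 7 of them higher and 3 lower, among them ENSBTAG00000010849 on chromosome 11 with a log2 fold change of -1.11.

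The deposited values carry the bounds that Cufflinks gave for each estimate, which show how precisely a level was read within 1 animal. For EEF2K, bull M8162 had 4.66 FPKM as deposited with bounds of 4.40 and 4.92, and the shallow Wagyu 5 had 25.7 FPKM as deposited with bounds of 24.4 and 27.0. These bounds were narrow beside the values themselves. Those of bull M8162 nevertheless overlapped those of Wagyu 9, with 5.16 FPKM as deposited and bounds of 4.87 and 5.45. The bounds are on the scale before rescaling between animals, whereas the distance between the groups given above is after it. For SAA3 the deposited bounds were wide, with 0.279 FPKM and bounds of 0.0682 and 0.49 in bull M8171 and 0.0709 FPKM and bounds of 0 and 0.225 in Wagyu 1. The bounds of those 2 animals overlap, so the separation of the groups in SAA3 is not resolved at the precision of single animals.

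Several called genes have more than 1 annotated transcript. In GNAL, the longer transcript held 95.3% to 99.0% of the gene's FPKM in the Montealto bulls and 96.4% to 99.2% in the Wagyu bulls, and it alone separated the groups, with 2.96 to 4.28 FPKM against 5.21 to 7.27 FPKM. In CBLN2, the main transcript separated them too, with 12.7 to 15.9 FPKM against 17.9 to 22.9 FPKM. In NOL10, by contrast, the main transcript overlapped, with 1.63 to 2.49 FPKM against 1.83 to 3.45 FPKM, and only the sum over transcripts separated the groups. The same held for MSI1, whose main transcript had 1.10 to 2.37 FPKM against 0.385 to 1.31 FPKM. It also held for NKD1, with 0.415 to 1.56 FPKM against 0.000708 to 0.655 FPKM in the main transcript. In GAB1, the shorter transcript held 61.2% of the gene's FPKM in bull M8165, at 7.33 FPKM, while it reached at most 1.40 FPKM in the other 3 bulls.

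Signalling genes that act between cells were among those with higher levels, and they were read list by list. Over all 992 tested genes with a symbol, 3.12% were called higher and 1.01% lower. These are the shares to set beside the calls of each list below. The lists of fibroblast growth factor receptors and of Hedgehog genes were chosen after the values of this fit were seen. Their counts of calls and of separate groups are therefore part of the choice and not a result. The receptors for fibroblast growth factors bind these ligands and signal through a kinase domain, which FGFRL1 lacks. Of 5 listed genes 4 had a symbol, 2 of which were called higher, beside 3.12% of all genes with a symbol, and none lower. Their median log2 fold change was 0.97 beside -0.00366 over all tested genes and 0.66 over the 992 tested genes with a symbol. FGFRL1 measured 2.94, 3.56, 2.90 and 2.43 FPKM in bulls M8162, M8165, M8171 and M8174 against 0.702, 0.996 and 1.60 FPKM as lowest, median and highest Wagyu value (log2 fold change 1.42 ± 0.19, SE, limma adjusted p = 0.0157, and 0.95 with a pseudocount of 1). FGFR2 measured 11.3, 12.7, 9.41 and 7.37 FPKM against 3.88, 4.97 and 6.88 FPKM (log2 fold change 1.00 ± 0.16, SE, limma adjusted p = 0.0296). In both genes every bull was above every Wagyu animal. FGFR3 missed the threshold (log2 fold change 0.94 ± 0.18, SE, limma adjusted p = 0.0511) although its groups were separate, and FGFR1 overlapped (0.44 ± 0.35, SE). GAB1, an adaptor that couples such receptors to downstream kinases, was called, with 7.37, 12, 5.27 and 5.35 FPKM in the 4 bulls against 2.02, 2.50 and 4.59 FPKM (log2 fold change 1.39 ± 0.24, SE, limma adjusted p = 0.0303).

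In Hedgehog signalling, the receptor PTCH1 holds back the transducer SMO until a ligand binds, and GLI proteins then carry the signal to target genes, PTCH1, GLI1 and HHIP among them. All 6 of 12 listed genes with a symbol had an unadjusted p under 0.05 and a higher mean, and in 5 of them the 4 bulls were above all Wagyu animals, but only PTCH1 was called. Of the 992 tested genes with a symbol, 59.2% had an unadjusted p under 0.05 and a higher mean, 16.1% had one with a lower mean, and in 10.3% the bulls were above all Wagyu animals. PTCH1 measured 2.60, 3.81, 2.99 and 2.17 FPKM in bulls M8162, M8165, M8171 and M8174 against 1.44, 1.48 and 2.08 FPKM as lowest, median and highest Wagyu value (log2 fold change 0.84 ± 0.14, SE, limma adjusted p = 0.0303). GLI2 (1.06 ± 0.20, SE, limma adjusted p = 0.0511) and GLI1 (1.15 ± 0.25, SE, limma adjusted p = 0.0680) did not pass. Both GLI genes were low. GLI2 had 0.151 to 0.330 FPKM in the bulls and 0.0308 to 0.0950 FPKM in the Wagyu animals, and GLI1 had 0.337 to 0.613 against 0.0681 to 0.311 FPKM. Across the alternative settings their log2 fold changes fell as low as 0.22 for GLI2 and 0.34 for GLI1. The Wagyu mean of GLI2, 0.0553 FPKM, was under the filter. GLI2 was therefore tested, and counted among the 5, only through the Montealto values. The groups of SMO overlapped, with a log2 fold change of 0.55.

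NOTCH receptors are activated by DLL and JAG ligands on neighbouring cells and turn on HES and HEY factors. Of 13 listed genes 7 had a symbol, 7 of 7 had an unadjusted p under 0.05 and a higher mean, beside 59.2% of all genes with a symbol, and 1 was called, DLL4, a ligand of endothelial cells. DLL4 measured 0.985, 1.89, 1.44 and 1.08 FPKM in the 4 bulls against 0.455, 0.530 and 0.744 FPKM in the Wagyu bulls (log2 fold change 1.10 ± 0.19, SE, limma adjusted p = 0.0296, and 0.57 with a pseudocount of 1). NRARP, a target and inhibitor of the pathway, had a log2 fold change of 1.08 ± 0.21 (SE, limma adjusted p = 0.0511), DLL1 0.84 ± 0.19 (SE, limma adjusted p = 0.0690) and NOTCH1 1.2 ± 0.27 (SE, limma adjusted p = 0.0692). The summed level of the 7 genes was 12.9 to 16.7 FPKM in the Montealto bulls and 6.32 to 11.5 FPKM in the Wagyu bulls.

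Among the ligands, inhibitors and targets of BMP signalling, 10 of 17 had a symbol, 9 of these had an unadjusted p under 0.05 and a higher mean, beside 59.2% of all genes with a symbol, and none was called by limma. ID4, a target that inhibits differentiation factors, came closest, with 16.8, 16.1, 15.7 and 10.6 FPKM against 5.28, 6.69 and 12.7 FPKM (log2 fold change 1.03 ± 0.21, SE, limma adjusted p = 0.0599). Its groups overlapped through bull M8174 and Wagyu 3. Genes of neural stem cells and radial glia numbered 4 with a symbol of 8 listed, of which NES and MSI1 were called higher. The share called higher among all genes with a symbol was 3.12%. This stem cell list, too, was chosen after the values of this fit were seen. NES, an intermediate filament of progenitors and reactive glia, measured 8.49, 10.003, 7.27 and 7.90 FPKM against 2.81, 3.92 and 4.95 FPKM (log2 fold change 1.08 ± 0.15, SE, limma adjusted p = 0.0184). MSI1, an RNA-binding protein of progenitors, measured 2.34 to 3.36 FPKM against 1.26 to 2.08 FPKM (log2 fold change 0.86 ± 0.14, SE, limma adjusted p = 0.0296). Neither overlapped.

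Retinoic acid is made by ALDH1A enzymes, carried in the cell by CRABP proteins and read by RAR receptors. Of 20 listed genes 8 had a symbol, 6 with an unadjusted p under 0.05 and a higher mean and none called by limma, a share near the 59.2% of all genes with a symbol. CRABP1 lay just outside the threshold (log2 fold change 2.23 ± 0.42, SE, limma adjusted p = 0.0502), with 30.0, 18.7, 14.1 and 16.5 FPKM in the bulls against a lowest value of 1.69, a median of 4.07 and a highest of 12.3 FPKM, Wagyu 3. ALDH1A1 had 9.41 FPKM in bull M8162 and 4.05 to 4.44 FPKM in the other 3 bulls, against 1.66 to 3.47 FPKM in the Wagyu bulls (log2 fold change 1.14 ± 0.24, SE, limma adjusted p = 0.0680). CRABP2, which is also on the list of fibroblast markers described below, ranged from 1.23 to 23.3 FPKM among the 4 bulls and was highest in bull M8162.

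The thyroid hormone list held 4 named genes of 13, and its called members moved in opposite directions. The shares called over all genes with a symbol were 3.12% higher and 1.01% lower. DIO2 was lower, as given above, and HR, a corepressor of nuclear receptors whose gene responds to thyroid hormone, was higher, with 2.26, 2.26, 1.70 and 1.57 FPKM in the bulls against 0.754, 0.963 and 1.27 FPKM in the Wagyu bulls (log2 fold change 0.94 ± 0.15, SE, limma adjusted p = 0.0296, and 0.58 with a pseudocount of 1). The groups of HR were separate. TTR, a carrier of thyroxine made in choroid plexus, measured 11.5, 18.1, 9.29 and 7.23 FPKM against 0.149, 3.30 and 9.06 FPKM and was not called (2.49 ± 0.89, SE, limma adjusted p = 0.175).

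Genes of fatty acid and cholesterol synthesis had 7 symbols of 14 listed, 2 of them called higher, beside 3.12% of all genes with a symbol. This list was chosen after the values of this fit were seen, so its calls and the separation of its sum are part of the choice and not a result. MID1IP1, which activates acetyl-CoA carboxylase, measured 22.3, 29.5, 21.9 and 19.0 FPKM in the 4 bulls against 8.34, 10.8 and 14.8 FPKM (log2 fold change 1.06 ± 0.15, SE, limma adjusted p = 0.0188). SCD, the desaturase that makes monounsaturated fatty acids, measured 34.6, 29.9, 34.1 and 37.3 FPKM against 15.8, 20.3 and 26.1 FPKM (log2 fold change 0.80 ± 0.14, SE, limma adjusted p = 0.0296). In both genes all bulls were above all Wagyu animals, as was the summed level of the 7 genes, with 118 to 132 FPKM against 67.5 to 88.2 FPKM. DHCR7 (0.55 ± 0.12, SE, limma adjusted p = 0.0680) and MSMO1 (0.44 ± 0.11, SE, limma adjusted p = 0.0853), enzymes of cholesterol synthesis, were not called.

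Glucocorticoid-responsive genes did not share a direction. Of 16 listed genes 10 had a symbol, 6 of them with an unadjusted p under 0.05 and a lower mean and 4 with a higher mean, and FKBP5 was the 1 that was called. The same shares over all genes with a symbol were 16.1% lower and 59.2% higher. NR3C1, the glucocorticoid receptor itself, had 3.01 to 3.45 FPKM in the 4 bulls against 2.11 to 2.61 FPKM in the Wagyu bulls, in separate groups just outside the threshold (log2 fold change 0.45 ± 0.09, SE, limma adjusted p = 0.0511). MT1E, a metallothionein from a family of similar genes, had 1.13 to 2.10 FPKM against 2.41 to 4.55 FPKM (-0.97 ± 0.19, SE, limma adjusted p = 0.0511). DUSP1, a phosphatase of MAP kinases, had 11.2 to 22.5 FPKM against 4.82 to 11.9 FPKM, with overlap (1.13 ± 0.27, SE, limma adjusted p = 0.0852).

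Heat shock proteins and their partners had 6 symbols of 11 listed, and HSPA1A was the only one called. Of all genes with a symbol, 3.12% were called higher and 1.01% lower. BAG3, a partner of HSP70, had 3.10 to 5.61 FPKM against 1.58 to 3.40 FPKM (log2 fold change 0.99 ± 0.21, SE, limma adjusted p = 0.0680). DNAJB5 (-0.80 ± 0.19, SE, limma adjusted p = 0.0856), HSPH1 (-0.65 ± 0.16, SE, limma adjusted p = 0.0859) and DNAJA1 (-0.69 ± 0.21, SE, limma adjusted p = 0.131) had lower means, so that the chaperone list did not follow HSPA1A.

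Of the activity-dependent neuronal genes, 18 of 25 had a symbol, with 11 at an unadjusted p under 0.05 and a lower mean and 3 with a higher mean (DUSP1, NR4A1 and JUNB), and BDNF was the 1 called, beside 16.1% lower and 59.2% higher of all genes with a symbol. RGS4, a regulator of G protein signalling, had 23.1 to 30.2 FPKM in the bulls against 30.5 to 51.9 FPKM, in groups that did not overlap (log2 fold change -0.63 ± 0.16, SE, limma adjusted p = 0.0886). FOSL2, a partner of JUN proteins, had 1.54 to 2.28 FPKM against 1.94 to 3.95 FPKM (-0.62 ± 0.16, SE, limma adjusted p = 0.0999). None of the 16 named genes of the 23 listed neuropeptides and receptors was called, although all 16 had a lower mean and 10 an unadjusted p under 0.05, beside 16.1% of all genes with a symbol. Some of them, CRHBP and CORT included, are also on the list of interneuron markers described below. ADCYAP1, which encodes the peptide PACAP, had 1.84 to 3.24 FPKM against 3.49 to 9.44 FPKM, without overlap (-1.23 ± 0.26, SE, limma adjusted p = 0.0680).

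The list of dopamine receptors and adenylyl cyclase coupling genes held 8 named genes of 14, and GNAL was the 1 called. Among all genes with a symbol, 1.01% were called lower and 3.12% higher. GNAL encodes a G protein subunit through which receptors can stimulate adenylyl cyclase. GNAL (ENSBTAG00000002125, chromosome 24, 42652184 to 42723588, plus strand) measured 4.11, 3.02, 3.52 and 4.44 FPKM in bulls M8162, M8165, M8171 and M8174 against 5.26, 6.36 and 7.40 FPKM as lowest, median and highest Wagyu value (log2 fold change -0.74 ± 0.12, SE, limma adjusted p = 0.0296). The groups were separate, with bull M8165 lowest. DRD2, the D2 receptor, had 0.466 to 1.17 FPKM against 0.117 to 0.459 FPKM and was not called (1.01 ± 0.28, SE, limma adjusted p = 0.111).

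**Figure D4:**
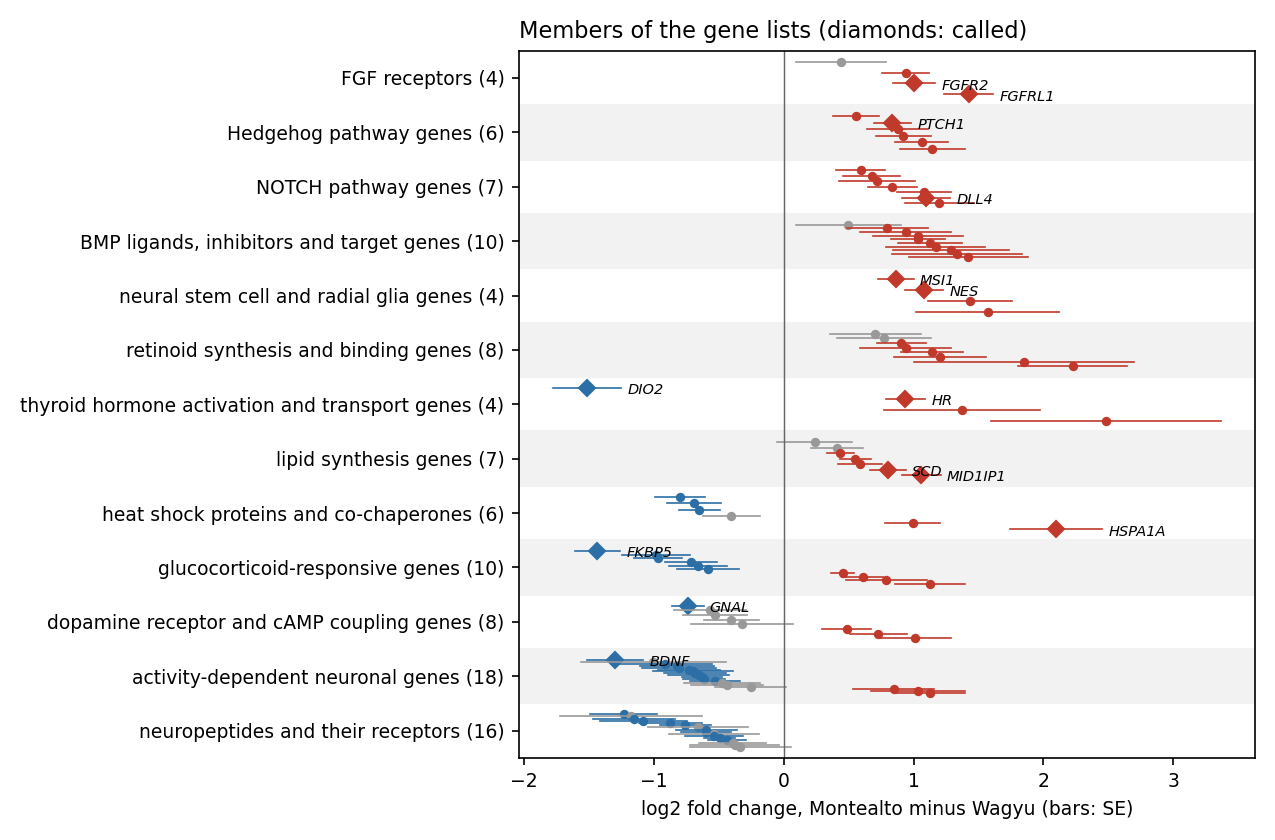
Log2 fold change (x axis, Montealto minus Wagyu, bars show the SE) of each named member of 13 gene lists (y axis, number of members in brackets), where red and blue mark an unadjusted p under 0.05 with a higher or lower mean, grey the other members, and labelled diamonds the called genes. All members of the FGF receptor, Hedgehog, NOTCH, BMP, stem cell, retinoid and lipid lists lie to the right of 0 and all neuropeptide members to the left, in a set of names taken from the study's own list of differing genes. The FGF receptor, Hedgehog, stem cell and lipid lists were chosen after the values of this fit were seen.

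Markers of astrocytes, oligodendrocytes, vessels and fibroblasts had higher means beside these lists, while those of microglia and other immune cells, described below, did not share a direction. All 10 named astrocyte markers, 13 of 13 oligodendrocyte markers, 9 of 9 endothelial and mural markers and 17 of 17 meningeal and perivascular fibroblast markers had a higher mean in the Montealto bulls, none of them called, and their median log2 fold changes were 0.59, 0.90, 0.94 and 1.16. The median over all 992 tested genes with a symbol was 0.66, above that of the astrocyte markers. These names come from the study's own list of differing genes, so a shared direction is not independent evidence. All 4 named glutamatergic and all 9 interneuron markers had a lower mean, with medians of -0.41 and -0.54, again none of them called. At an unadjusted p under 0.05 there were 9 astrocyte, 12 oligodendrocyte, 7 endothelial and mural and 11 fibroblast markers with a higher mean, and 3 glutamatergic and 6 interneuron markers with a lower mean, beside 59.2% higher and 16.1% lower of all 992 tested genes with a symbol.

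The summed levels overlapped between the groups in each of these 6 lists. Fibroblast markers summed to 182 FPKM in bull M8162 and to 41.3 to 49.1 FPKM in the other 3 bulls, against 17.3 to 68.5 FPKM in the Wagyu bulls, where Wagyu 3 and Wagyu 4 were highest. Endothelial and mural markers summed to 150 FPKM in bull M8165 and 41.7 to 64.0 FPKM in the others, against 22.5 to 64.5 FPKM. Oligodendrocyte markers summed to 451 FPKM in bull M8165 and to as little as 200.5 FPKM in the others, against 103 to 300.3 FPKM. Different bulls thus carried the highest sums, and Wagyu 3 had the highest sum of the Wagyu bulls for astrocyte (1421 FPKM), endothelial and mural (64.5 FPKM) and fibroblast markers and the lowest for glutamatergic markers (119 FPKM). Astrocyte markers summed to 950 to 1574 FPKM in the 4 bulls against 714 to 1421 FPKM in the 8 Wagyu bulls. The part of these cell types in the differences of the receptors, ligands and filaments above was not tested.

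Microglia and other immune cells had 7 named markers of 15, which did not share a direction. TMEM119 was called higher, but it passed the filter only through the Montealto bulls, as given above. CD68, a lysosomal protein of macrophages, had 1.25 to 1.42 FPKM against 0.437 to 0.960 FPKM (log2 fold change 0.80 ± 0.17, SE, limma adjusted p = 0.0680). HCLS1, a cytoskeletal protein of blood cells, had 0.869 to 1.32 FPKM against 1.59 to 2.86 FPKM (-0.91 ± 0.19, SE, limma adjusted p = 0.0680). HBB, the beta chain of haemoglobin and the 1 named erythroid marker, had 0.324 to 1.73 FPKM against 0 to 1.78 FPKM.

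**Figure D5:**
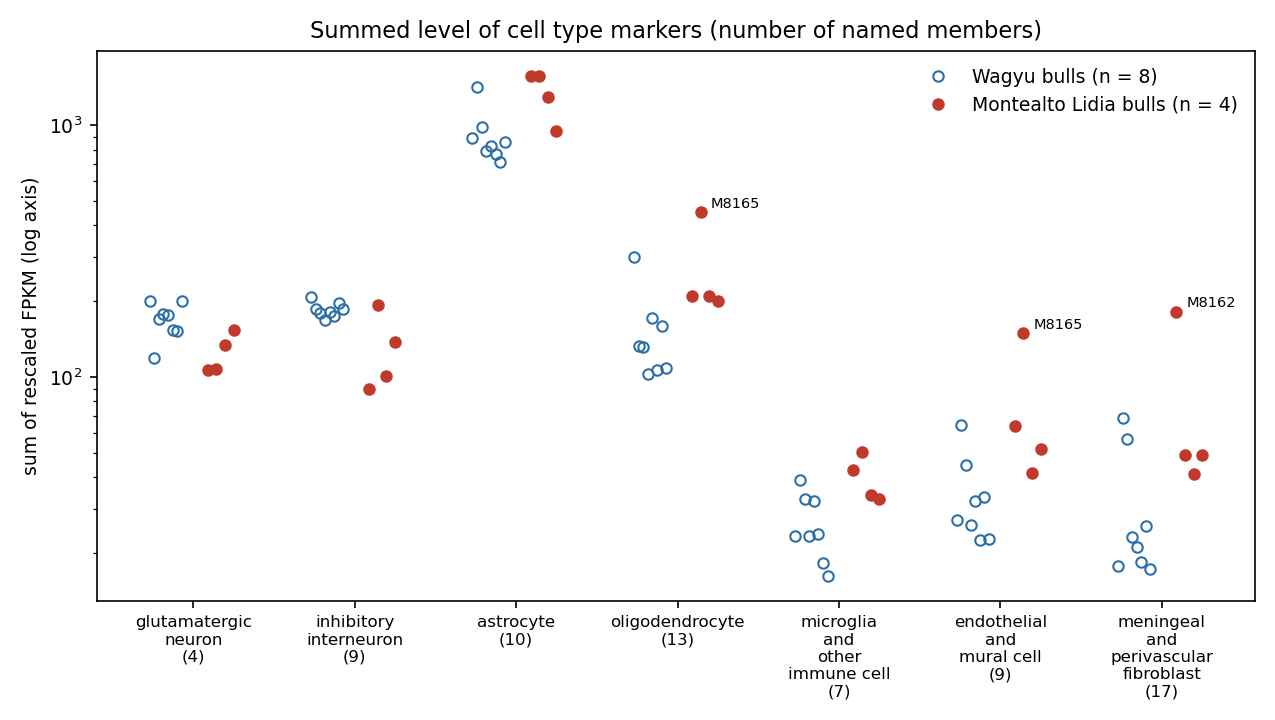
Summed rescaled FPKM (y axis, log) of the named markers of 7 cell types (x axis, number of markers in brackets) in each of the 8 Wagyu bulls (open blue circles) and 4 Montealto bulls (red circles). Bull M8165 stands highest for oligodendrocyte (451 FPKM) and endothelial and mural markers (150 FPKM) and bull M8162 for fibroblast markers (182 FPKM).

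Transcripts of the mitochondrial chromosome took 28.0%, 38.4%, 26.9% and 33.2% of all FPKM in bulls M8162, M8165, M8171 and M8174, and 17.8%, 22.7% and 39.3% as lowest, median and highest share in the Wagyu bulls. Wagyu 5, the shallowest library, had the highest share of all. The means were 31.6% ± 5.30 (SD, n = 4) and 24.0% ± 6.98 (SD, n = 8), a difference that the two-sided exact permutation test did not separate from the spread between animals (p = 0.101, where the smallest p possible is 0.00404). Without Wagyu 5 the difference was 9.78 percentage points (exact permutation p = 0.0121). Of 15 tested mitochondrial genes of 37, 10 had a higher mean, and the log2 fold changes ran from -3.37 to 2.33. At an unadjusted limma p under 0.05, 8 were higher and 0 lower, beside 9.86% and 8.62% of all tested genes. Only 1, ENSBTAG00000043563, was called higher, with 1432 to 1727 FPKM in the bulls against 423 to 1093 FPKM in the Wagyu bulls. Its locus overlaps 1 other gene, and the assignment of reads between them was not tested.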

How the data were processed

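RNA-seq of medial prefrontal cortex was analysed from 4 Montealto Lidia and 8 Wagyu bulls, 1 library per animal. The 4 Lidia bulls of the other farm were in no fit. Per the study's methods and processing notes, reads were trimmed (PRINSEQ), aligned to bovine ARS-UCD 1.2 with its Ensembl genes (STAR 2.7.3a) and quantified per transcript (Cufflinks 2.2.1) by the authors. The deposited transcript lists give FPKM, its bounds and coverage, all scaled within each animal only. Transcript FPKM was added up per gene (43984 transcripts, 27607 genes), divided by a median-of-ratios factor from 16132 genes and tested as log2(FPKM + 0.1) for genes averaging 0.1 FPKM or more, by a two-sided limma 3.58.1 test in R 4.3.3 (lmFit and trended eBayes, Benjamini-Hochberg adjustment, no covariate). Fold changes are on this scale, which understates changes of low genes. Depth was read as coverage over FPKM with 200 bases per fragment. No read counts were used, so precision rests on the spread between animals.

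Symbols came from the loci of the study's list of differing genes, where both ends were identical: 1050 of the 1197 entries gave 1 gene, 113 fell on several genes and 34 on none, giving 998 symbols. The reference gene table was of another build and matched 0 of the identifiers. The list columns that hold the authors' fold changes and p-values were not used. The named genes were the 10 largest called changes in each direction without overlap of the groups (9 were lower) and the members of the gene lists, up to 4 per list in order of p, other called genes being chosen after their values were seen. The comparison and the lists were chosen with earlier results of these data known, and 4 lists (FGF receptors, Hedgehog, lipid synthesis, neural stem cells) after the values of this fit were seen. Single values per animal were compared with an exact permutation test (Python 3.11.15, scipy 1.17.1).

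Data were simulated with 50 genes changed per size among 16286. The comparison of 4 with 8 animals called 20% of genes changed by 0.5 on the log2 scale. It called 62% at 1, 84% at 1.5 and 88% at 2, and 8 of 135 calls were unchanged genes. Whether these shares hold for the measured animals was not tested. The alternatives were other scalings, pseudocounts, filters, weights, tests and thresholds, and leaving out animals. A called gene is counted but not reported here.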

Additional observations from a re-analysis of the deposited data

Results flagged for a closer look

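Values far from the rest of their group were looked for with Dixon's ratio in 230 groups of 4 or 8 animals; 15 were found, where chance alone would give about 11.5. Wagyu 5 stood apart from the other Wagyu bulls with 7.67 M fragments and with a mitochondrial share of 39.3%. The gene values that follow are log2(FPKM + 0.1).

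Wagyu 3 was the animal named most often. It was far from the other Wagyu bulls with 0.84 for BDNF and 4.73 for HSPH1, both low, and with 3.68 for ID4, -0.12 for BMP5, 1.12 for PTCH1 and 0.40 for TMEM220, all high. In each of these 6 genes Wagyu 3 lay on the side of the Montealto bulls. Wagyu 1 was high for GAB1 (2.23), and Wagyu 9 was low for ENSBTAG00000010849 (1.14).

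Among the Montealto bulls, M8162 was high for DCN (4.41), a proteoglycan of fibroblasts, and for ALDH1A1 (3.25). Bull M8165 was high for SOX10 (3.93), a transcription factor of oligodendrocytes, and for DLL1 (1.58). Bull M8174 was low for ID4 (3.42). None of these values was removed from the comparison.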

How the results depend on the processing

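The 51 called genes (38 higher, 13 lower) became 0 on the FPKM as deposited (0 higher, 0 lower; smallest adjusted p 0.254) and 0 with an exact rank-sum test (2861 genes at an unadjusted p under 0.05), 1326 with limma array weights (663 and 663), 2 with the adjusted p limited to 0.01 (1 and 1) and 36 either among genes averaging 1 FPKM or more (25 and 11) or with the log2 fold change limited to 1 or more in size (29 and 7). Upper-quartile rescaling gave 63 (51 and 12), a median of ratios over genes with a mean of at least 1 gave 67 (55 and 12), a pseudocount of 1 gave 58, one of 0.01 gave 46, no filter gave 56 and no variance trend 59. Leaving out each animal in turn gave 2 to 388 called genes, 1 to 270 higher and 1 to 118 lower. Leaving out both shallow animals, an alternative chosen after seeing the data, gave 2 (0 higher, 2 lower). The causes of these shifts were not tested. All 51 genes had the same direction under every alternative in which they were tested, 45 of them with an unadjusted p under 0.05 on the FPKM as deposited, where the median log2 fold change of all genes was -0.21. The alternatives reuse the animals of the fit that chose the genes, so a kept direction is no independent support. Genes with the 4 Montealto values above or below all Wagyu values numbered 44 and 78 as deposited, in place of 239 and 212. The difference in mitochondrial share was 5.33 to 9.78 percentage points with 1 animal left out and reached p = 0.0121 by exact permutation without Wagyu 5. The difference in fragments ran from -3.29 to 2.80 M and changed sign in 7 of these 12 settings.

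No paired analysis was possible because the animal numbers are not shared between the breeds. Wagyu 5 and Montealto M8165 had the fewest fragments, and the part of depth in single genes was not tested.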

Other observations

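Differences between single bulls of the Montealto farm were as large as those between the breeds for some markers. CLDN5, a tight junction protein of endothelial cells, measured 94.1 FPKM in bull M8165 and 20.9 to 25.4 FPKM in the other 3 bulls, against 10.7 to 23.6 FPKM in the Wagyu bulls. CORT, the peptide cortistatin of interneurons, measured 39.7 FPKM in bull M8165 and 24.5 FPKM in M8174, but 8.91 and 8.80 FPKM in bulls M8162 and M8171, against 32.0 to 42.9 FPKM in the Wagyu bulls. SLC13A4, a sulphate transporter of meningeal fibroblasts, measured 14.4 FPKM in bull M8162, 0.476 FPKM in M8165, 1.76 FPKM in M8171 and 3.39 FPKM in M8174, against 0.0603 to 2.31 FPKM. VIM, the filament of mesenchymal and glial cells, measured 146 FPKM in bull M8162 and 25.9 to 42.7 FPKM in the other 3, against 9.27 to 53.1 FPKM. Bull M8165 also had 221 FPKM of MT2A, a metallothionein, where the other 3 bulls had 58.3 to 62.1 FPKM and the Wagyu bulls 37.0 to 69.0 FPKM. None of these genes was called by limma in the comparison of the breeds.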
